A study of Homo sapiens with 6 samples.

Results

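The complement genes C1R, C1S, C3, CFB, CFI, SERPING1, CD46, CD55 and CD59 were read in HT1080 cells with and without interferon-β (IFNβ). They are 9 of the 62710 genes in the table of expression values and were chosen by name, with the initiating proteases, the central component, the soluble regulators and the regulators on the cell surface among them. HT1080 is an established human fibrosarcoma cell line, so both groups come from a single line grown in the same medium, DMEM with serum, penicillin and streptomycin. In 3 libraries the cells were left untreated, and in the other 3 they had received 20 ng/mL IFNβ for 24 h. The sample labels give the cytokine as human IFNβ, whereas the RNA sequencing methods of the study give it as mouse IFNβ.

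Complement is a cascade of proteases that marks surfaces for uptake and can open pores in membranes. C1r and C1s are the proteases of the C1 complex, which starts the classical pathway by cleaving C4 and C2. Factor B forms the protease of the alternative pathway together with C3, the component on which all pathways converge. Host cells limit the cascade with secreted regulators, such as C1 inhibitor and factor I, and with membrane proteins, among them CD46, CD55 and CD59. The liver makes most complement proteins of the blood, while fibroblasts and many other cells make part of the set locally, and interferons are known inducers of several of its genes.

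Promoter sequence of RefSeq on GRCh38.p14 was at hand for 6 of the 9 genes, in 11 windows that run from 250 bases before to 50 bases after a transcription start. The windows were searched on both strands for the letters GAAANNGAAA, the core of an interferon-stimulated response element (ISRE), and TTCNNNGAA, the palindrome of a gamma-activated site (GAS). The ISRE letters stood in the window of 1 of the genes, CFB, and the GAS letters in windows of 3, namely C1R, CD59 and CFB. Of all 35116 promoter windows, 3.574% held the ISRE letters and 7.657% the GAS letters, so a match is a description of the letters and not a bound site. Of the 38 genes with a window in a wider list of complement genes, 1 held the ISRE letters and 11 the GAS letters. These genes had 53 windows, and a gene counts if any of its windows matched. Counts of genes are therefore not directly comparable with the shares of windows. The windows of CFB and C1R are shown because both genes rose after IFNβ, and that of CD55 because it held neither motif and the level of the gene did not pass the test. This choice does not show that motif and response go together. CD59, with the GAS letters, was lower with IFNβ, and CFI, with neither motif, was higher on few fragments. Each printed window is written 5′ to 3′ on the strand of the gene with the matches in capitals. The CFB window lies at chr6:31945845-31946144 on the plus strand, with the ISRE letters on the opposite strand at bases 111 to 120 and the GAS letters at bases 159 to 167. The C1R window lies at chr12:7091844-7092143 on the minus strand, with the GAS letters at bases 165 to 173, and another C1R window, at chr12:7092396-7092695, held neither. The CD55 window lies at chr1:207321428-207321727 on the plus strand.
CFB: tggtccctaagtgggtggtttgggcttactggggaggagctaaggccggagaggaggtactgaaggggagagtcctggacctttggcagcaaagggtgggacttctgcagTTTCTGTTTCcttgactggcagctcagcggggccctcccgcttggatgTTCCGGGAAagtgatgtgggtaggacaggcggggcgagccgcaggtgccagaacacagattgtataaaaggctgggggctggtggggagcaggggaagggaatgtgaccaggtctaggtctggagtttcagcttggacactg
C1R: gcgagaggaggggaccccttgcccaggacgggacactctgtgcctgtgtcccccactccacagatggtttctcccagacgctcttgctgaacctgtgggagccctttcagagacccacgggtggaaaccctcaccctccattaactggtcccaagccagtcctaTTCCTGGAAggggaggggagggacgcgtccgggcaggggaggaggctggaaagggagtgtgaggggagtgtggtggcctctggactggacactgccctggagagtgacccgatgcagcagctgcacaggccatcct
CD55: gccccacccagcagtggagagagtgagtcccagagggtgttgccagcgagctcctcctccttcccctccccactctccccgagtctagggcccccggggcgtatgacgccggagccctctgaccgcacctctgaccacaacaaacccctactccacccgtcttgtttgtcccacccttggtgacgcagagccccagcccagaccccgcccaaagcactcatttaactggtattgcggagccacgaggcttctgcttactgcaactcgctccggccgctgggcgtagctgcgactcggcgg

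The authors deposited FPKM, fragments scaled by gene length and library size, with 1 value per gene and library. The values moved in steps of single fragments, from which the number of fragments that each library was divided by was recovered as 22848104 to 32915500. A gene of 1 kb with 1 fragment therefore had 0.0304 to 0.0438 FPKM, and counts of fragments are given below for genes at low levels, with intervals that cover counting error only. Libraries of a group differed by more than counting error (chi-square per degree of freedom 1.78 to 3.39). The study describes its in vitro experiments in general as done on independent biological replicates, and no label says whether these libraries came from separate cultures, so p-values measure the spread between these libraries. The groups were compared by limma on log2(FPKM + 0.1) over the 20716 genes with a mean of at least 0.1 FPKM. Differentially expressed genes (DEGs) had a Benjamini-Hochberg adjusted p-value under 0.05 over all of these genes and a log2 fold change of 1 or more in size. Fold changes on this scale understate the change of genes at low levels. The response to the cytokine was visible in IFIT1 (0.873 to 0.942 FPKM in untreated libraries against 409 to 415 FPKM with IFNβ), ISG15 (10.0 to 10.9 against 1414 to 1468 FPKM) and MX1 (0.185 to 0.300 against 69.6 to 71.9 FPKM). Of 8 mesenchymal markers, 6 were over 1 FPKM in every library, and THY1 was under 0.1 FPKM in all of them.

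The RNA of the complement proteases C1R, C1S and CFB and of C3 was 3.61-fold to 14.3-fold higher with IFNβ, while that of the surface regulators CD46, CD55 and CD59 was at 0.776 to 1.08 times its untreated level. Of the 9 genes, 7 passed the filter on low values, and SERPING1 and CFI did not. The 4 DEGs were C1R, C1S, CFB and C3, and all of them rose, where 3.49% of all genes tested were DEGs that rose, 0.739% were DEGs that fell and 4.22% were DEGs in either direction. CFB, with an untreated mean under 0.1 FPKM, passed the filter only through its treated libraries and so had to differ, and of the other 6 tested genes 3 were DEGs. The median log2 fold change of the 7 genes, CFB included, was 1.39. That of all genes tested was 0.00017, with the middle 95% between −0.95 and 1.52. Without the fold threshold, 5 of the 7, CFB among them, were higher and 1 was lower at an adjusted p-value under 0.05. The shares of all genes tested were 15.2% and 17.5%. The IFNβ-treated libraries lay wholly above the untreated ones for 5 of the 7, again with CFB, and wholly below for 1. Here the shares of all genes tested were 22.3% and 24.3%. As these are bulk libraries, a change in the RNA per cell and a change in the share of cells that express a gene cannot be told apart.

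**Figure D1:**
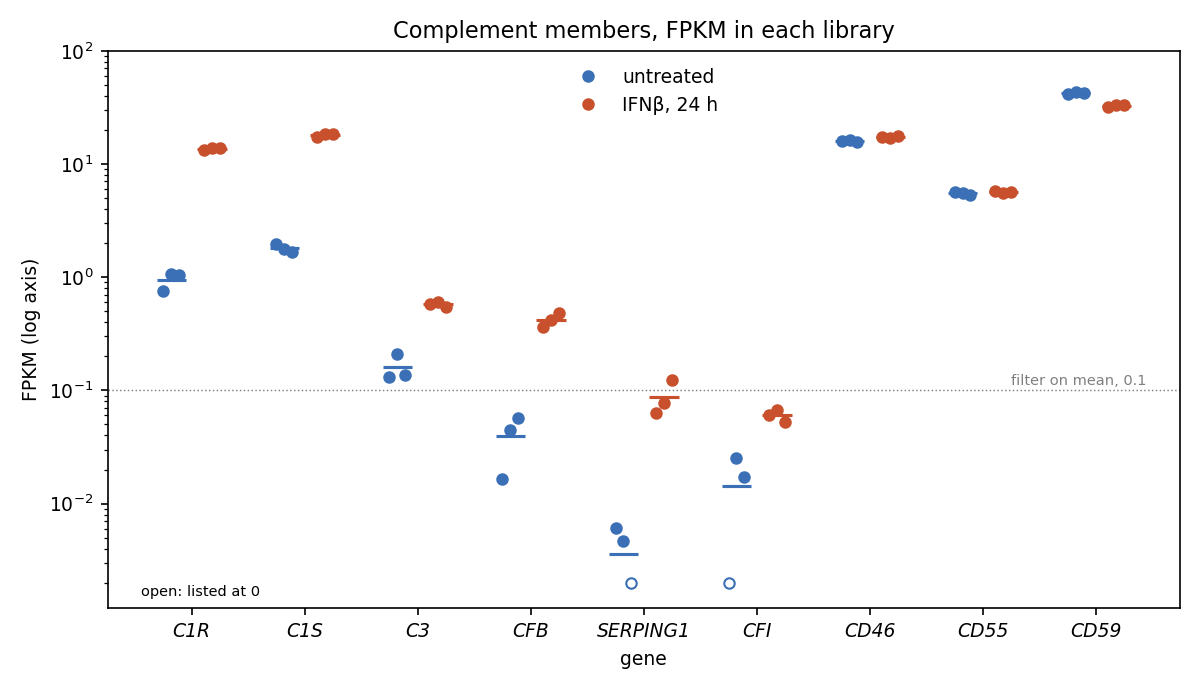
Expression of the 9 complement genes in each library, in FPKM on a log axis, with untreated libraries in blue, IFNβ-treated libraries in red and bars at the group means (n = 3). C1R and C1S moved from under 2 FPKM to between 13.3 and 18.6 FPKM, CD59 was at 31.6 to 43.0 FPKM throughout, and open circles mark the libraries in which SERPING1 or CFI was listed at 0.

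C1R (ENSG00000159403; chromosome 12, 7080199 to 7092607, minus strand, protein coding) encodes the protease that activates C1s within C1. It had 0.762, 1.06 and 1.04 FPKM in the untreated libraries and 13.3, 13.8 and 13.8 FPKM with IFNβ. The IFNβ-treated libraries were close to each other and far above the untreated ones, of which the first was the lowest. The mean went from 0.954 ± 0.166 to 13.6 ± 0.257 FPKM (S.D., n = 3 each), which is 14.3-fold higher, on 482 fragments in all untreated libraries and 6693 in all treated ones. On the log2 scale C1R rose by 3.72 (standard error 0.12, 95% confidence interval 3.43 to 4.0, limma adjusted p = 3.55e-06).

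C1S (ENSG00000182326; chromosome 12, 6988259 to 7071032, plus strand, protein coding) encodes the protease that cleaves C4 and C2. It had 1.97, 1.79 and 1.66 FPKM in the untreated libraries and 17.5, 18.6 and 18.6 FPKM with IFNβ. Again the groups were far apart and the treated libraries nearly level. The mean went from 1.80 ± 0.157 to 18.2 ± 0.636 FPKM (S.D., n = 3 each), which is 10.1-fold higher. On the log2 scale this was a rise of 3.27 (standard error 0.07, 95% confidence interval 3.11 to 3.43, limma adjusted p = 4.64e-07). Among all genes tested, ordered by log2 fold change from the highest, C1R was at place 71 and C1S at place 94.

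C1R and C1S lie 9166 bp apart on opposite strands, and their products act in the same complex. FPKM are scaled by a length for each gene, which need not be that of the transcripts expressed, so levels of different genes compare only roughly. C1R was at 0.387, 0.591 and 0.629 of the FPKM of C1S in the untreated libraries and at 0.764, 0.743 and 0.741 with IFNβ. The ratio was higher in each treated library than in any untreated one, and the untreated libraries differed more among themselves. Summed, the proteases had 2.73, 2.84 and 2.70 FPKM without and 30.8, 32.4 and 32.3 FPKM with IFNβ. C1R shares 672 bp of exon with C1RL on its own strand, and C1S shares 229 bp with EMG1, which was at 2.99 FPKM in untreated cells and 2.80 FPKM with IFNβ. How fragments of shared exons were assigned is not given in the sources used here.

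CFB (ENSG00000243649; chromosome 6, 31945650 to 31952084, plus strand, protein coding), the gene of factor B, stood at a much lower level. It had 0.0165, 0.0444 and 0.0572 FPKM in the untreated libraries, from 2, 7 and 10 fragments, and 0.361, 0.414 and 0.482 FPKM with IFNβ, from 59, 55 and 74 fragments. Each treated library was several times above the highest untreated one. The mean went from 0.0394 ± 0.0208 to 0.419 ± 0.0609 FPKM (S.D., n = 3 each), and the ratio of fragments per library total was 9.98 (95% confidence interval 6.22 to 17.0, exact, counting error only). Since CFB passed the filter only through the treated group, its fit describes a difference that this selection favours. CFB rose by 1.90 on the log2 scale (standard error 0.24, 95% confidence interval 1.32 to 2.49, limma adjusted p = 0.00155), and with a pseudocount of 1 in place of 0.1 its log2 fold change was 0.45 and it was no DEG. CFB shares 23 bp of exon with C2 and 2249 bp with AL645922.1, a gene that spans both and was listed at 0 in all libraries.

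C3 (ENSG00000125730; chromosome 19, 6677704 to 6730562, minus strand, protein coding) encodes the component whose cleavage all pathways share. It had 0.132, 0.210 and 0.136 FPKM in the untreated libraries and 0.581, 0.602 and 0.544 FPKM with IFNβ. The groups did not overlap, and the second untreated library was above the other untreated ones. The mean went from 0.159 ± 0.0435 to 0.575 ± 0.0291 FPKM (S.D., n = 3 each), which is 3.61-fold higher, on 159 and 563 fragments. Its log2 fold change was 1.39 (standard error 0.19, 95% confidence interval 0.93 to 1.85, limma adjusted p = 0.0021), and 0.44 with a pseudocount of 1, where it was no DEG. Even with IFNβ, C3 was at 0.0293 to 0.0332 of the FPKM of C1S.

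The secreted regulators SERPING1 and CFI were close to the limit of detection. SERPING1 (ENSG00000149131; chromosome 11, 57597387 to 57614853, plus strand, protein coding) encodes C1 inhibitor, which inactivates C1r and C1s. It had 0.00605, 0.00466 and 0 FPKM in the untreated libraries, from 1, 1 and 0 fragments, and 0.0629, 0.0775 and 0.124 FPKM with IFNβ, from 14, 14 and 26 fragments. The groups did not overlap, and the third treated library was the highest. Over the libraries the ratio was 27.2 on 2 and 54 fragments, with a 95% confidence interval of 7.19 to 231 (exact, counting error only). Its mean was under the filter, so it has no value in the test over all genes. With limma-voom on the fragments, in a fit over genes with at least 10 fragments that was added after the values were seen, the log2 fold change was 4.14 (standard error 0.88, adjusted p = 0.000652), while limma on log2(FPKM + 0.1) with no filter gave 0.85 (adjusted p = 0.0165). SERPING1 reached 10 fragments only through the treated libraries, so the limma-voom fit describes a difference that this selection favours.

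CFI (ENSG00000205403; chromosome 4, 109740694 to 109802179, minus strand, protein coding) encodes factor I, the protease that cuts C3b and C4b with the help of cofactors such as CD46. It had 0, 0.0253 and 0.0171 FPKM in the untreated libraries, from 0, 4 and 3 fragments, and 0.0611, 0.0677 and 0.0521 FPKM with IFNβ, from 10, 9 and 8 fragments. The groups did not overlap, but the counts are small. The ratio was 3.89 on 7 and 27 fragments (95% confidence interval 1.65 to 10.6, exact, counting error only). CFI was also under the filter, and its log2 fold change was 2.12 with limma-voom on the fragments (adjusted p = 0.0295) and 0.49 with limma without a filter (adjusted p = 0.0681), so the call depends on the fit. Like SERPING1, CFI reached 10 fragments only through the treated libraries, which favours a difference in the limma-voom fit. CFI shares 1562 bp of exon with AC126283.2, which was listed at 0 in all libraries.

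The membrane regulators CD59, CD46 and CD55 had higher levels than the other 6 genes in untreated cells. CD59 (ENSG00000085063; chromosome 11, 33703010 to 33736491, minus strand, protein coding) encodes the lipid-anchored protein that blocks the assembly of the membrane attack complex. It had 41.2, 43.0 and 41.9 FPKM in the untreated libraries and 31.6, 32.9 and 33.4 FPKM with IFNβ. All treated libraries were below all untreated ones. The mean went from 42.0 ± 0.933 to 32.6 ± 0.901 FPKM (S.D., n = 3 each), 0.776 of the untreated level. The log2 fold change was −0.36 (standard error 0.03, 95% confidence interval −0.43 to −0.30, limma adjusted p = 0.000189). The difference passed the adjusted p-value and not the fold threshold, and over the alternatives the log2 fold change was −0.38 to −0.34 with adjusted p-values from 1.87e-12 to 0.00373. CD59 shares 629 bp of exon with AL049629.2, which was at 2.72 FPKM in untreated cells and 2.53 FPKM with IFNβ.

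CD46 (ENSG00000117335; chromosome 1, 207752057 to 207795513, plus strand, protein coding) encodes a cofactor for factor I. It had 15.99, 16.4 and 15.7 FPKM in the untreated libraries and 17.4, 17.0 and 17.7 FPKM with IFNβ. The treated libraries were all above the untreated ones by a small margin. The log2 fold change was 0.11 (standard error 0.03, 95% confidence interval 0.05 to 0.18, limma adjusted p = 0.0172), far from the fold threshold. The adjusted p-value ran from 0.000234 to 0.0756 over the alternatives and was above 0.05 without the third untreated library (0.0574), the first treated library (0.0546) or the third treated library (0.0603).

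CD55 (ENSG00000196352; chromosome 1, 207321376 to 207386804, plus strand, protein coding) encodes decay-accelerating factor, which takes the C3 convertases apart. It had 5.66, 5.56 and 5.28 FPKM in the untreated libraries and 5.83, 5.52 and 5.63 FPKM with IFNβ. The groups overlapped. The log2 fold change was 0.04, with a 95% confidence interval of −0.06 to 0.14 (limma adjusted p = 0.511). CD55 and CD46 lie 365252 bp apart on the same strand, with CR1 and CR2, the genes of complement receptors, between them. CR1 was listed at 0 in every library and CR2 had 2 fragments in all untreated and 1 in all treated libraries.

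Set against each other, the proteases and the surface regulators drew closer in level. The ratios and orders below share the limit that levels of different genes compare only roughly. CD46, CD55 and CD59 summed to 62.8, 65.0 and 63.0 FPKM in the untreated libraries and to 54.8, 55.5 and 56.7 FPKM with IFNβ. This sum was 23.0, 22.8 and 23.3 times that of C1R and C1S in the untreated libraries and 1.78, 1.71 and 1.75 times with IFNβ. CD59 made up 65.5%, 66.2% and 66.6% of the summed regulators without and 57.7%, 59.4% and 58.8% with IFNβ. In untreated cells the order of levels was CD59, CD46, CD55, C1S, C1R, C3, CFB, CFI and SERPING1, in which the ranges of neighbours overlapped for CFB, CFI and SERPING1 alone. With IFNβ it was CD59, C1S, CD46, C1R, CD55, C3, CFB, SERPING1 and CFI, in which C1S overlapped CD46 and SERPING1 overlapped CFI. The spread between libraries followed the level, with a coefficient of variation of 2.04% to 3.53% for the 3 membrane regulators and of 52.9% to 91.3% for CFB, SERPING1 and CFI in the untreated group.

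**Figure D2:**
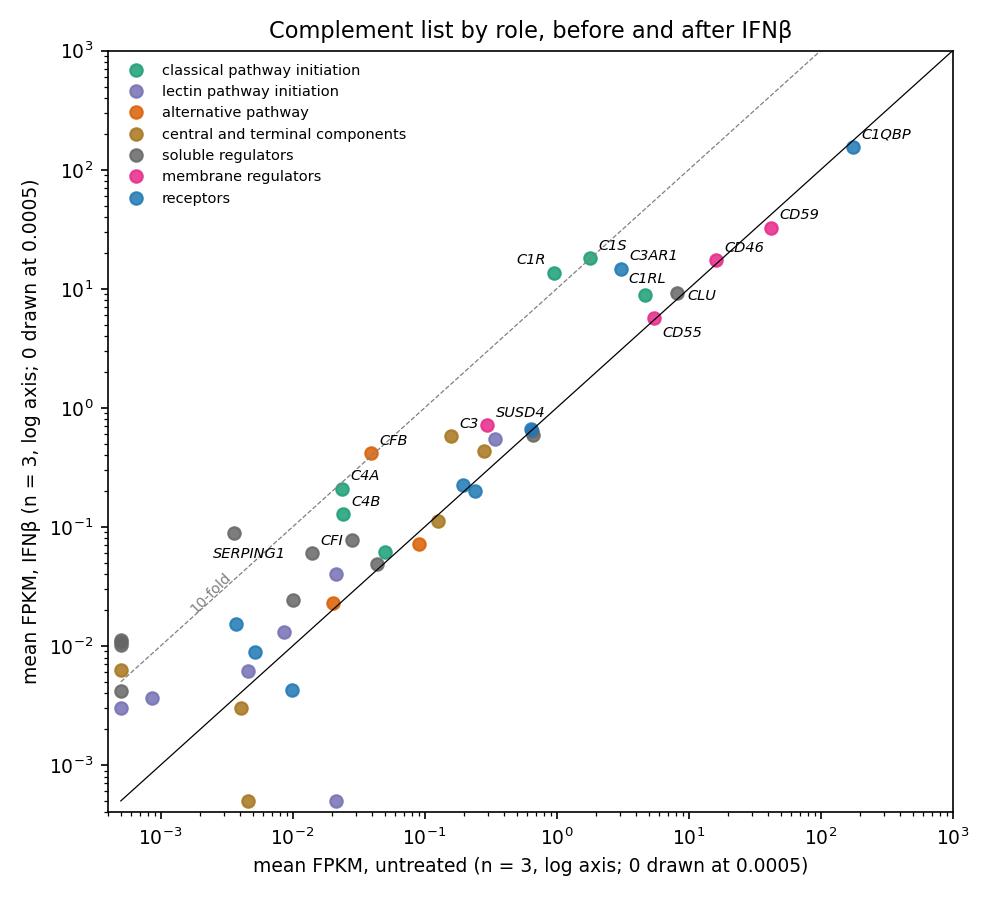
Mean FPKM of each gene in a list of complement genes in untreated (x axis) and IFNβ-treated libraries (y axis), n = 3 each, on log axes, coloured by role, with genes at 0 in one group drawn at 0.0005 and genes at 0 in both left out. C1R, C1S, CFB and SERPING1 lie on or above the dashed 10-fold line, and CD46, CD55 and CD59 lie near the solid line of equal levels.

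The wider list held 57 textbook components, regulators and receptors of complement, the 9 genes included. Of these, 10 were listed at 0 in every library, among them the chains of C1q (C1QA, C1QB and C1QC), the recognition subunit of C1. In all 36 were under the filter, the 10 at 0 included, and 21 were tested. Of the 21, 7 were DEGs that rose, 0 were DEGs that fell and 14 were not DEGs (without the fold threshold limma gave 11 higher and 2 lower, CD59 and C1QBP, which were also the 2 lower at an unadjusted p-value under 0.05, and limma-voom on the fragments gave 0 DEGs that fell). Over all genes tested, the shares were 3.49% and 0.739% for DEGs that rose and fell, and 15.2% higher and 17.5% lower without the fold threshold. Among the 7, CFB and C4A passed the filter only through the treated libraries. The median log2 fold change of the 21, CFB and C4A included, was 0.17. Without the 9 genes, 3 of 14 tested were DEGs, all of them higher and C4A among them, and the median was 0.15.

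The 3 further DEGs were C3AR1, C4A and SUSD4. C3AR1, the receptor for the C3a fragment, had 3.13, 3.36 and 2.78 FPKM in the untreated libraries and 14.4, 15.1 and 14.7 FPKM with IFNβ. Its treated libraries were all far above the untreated ones, at 4.77 times their mean. C3AR1 rose by 2.22 on the log2 scale (standard error 0.07, limma adjusted p = 3.41e-06). It lies 965694 bp from C1R on chromosome 12.

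C4A, a gene of C4, the substrate of C1s, had 0.0306, 0.0188 and 0.0212 FPKM in the untreated libraries and 0.236, 0.168 and 0.227 FPKM with IFNβ, from 14 and 129 fragments in all (log2 fold change 1.32, limma adjusted p = 0.0102). Like CFB, C4A passed the filter only through the treated group, and with a pseudocount of 1 its log2 fold change was 0.24 and it was no DEG. The groups did not overlap, but C4A is nearly identical to C4B, 12113 bp away, and fragments could have been split between them, so each value is uncertain. C4A also shares 303 bp of exon on its own strand with STK19, which was at 1.57 FPKM in untreated cells and 1.36 FPKM with IFNβ. Without the first or the third treated library the mean of C4A was under the filter. C4B itself, under the filter and named after its values were seen, had 16 and 78 fragments, a ratio of 4.92 (95% confidence interval 2.85 to 9.03, exact, counting error only).

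SUSD4, a membrane protein that inhibits complement, had 0.336, 0.221 and 0.342 FPKM in the untreated libraries and 0.852, 0.593 and 0.713 FPKM with IFNβ (log2 fold change 1.04, limma adjusted p = 0.00945). It lay just over the fold threshold. Its log2 fold change was 0.40 with a pseudocount of 1, 0.89 without the second untreated library, 0.92 without the first treated one and 0.91 after quantile normalization, in each case short of a DEG.

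By role, the genes that start the classical pathway had the most DEGs, though few genes were tested in each role. Over all genes tested, 3.49% were DEGs that rose. Of the 9 genes that start the classical pathway 4 were tested, of which C1R, C1S and C4A were DEGs. C4A passed the filter only through the treated libraries. C1RL, a relative of C1R, went from 4.66 ± 0.338 to 8.84 ± 0.545 FPKM (S.D., n = 3 each). The log2 fold change of C1RL was 0.91 (limma adjusted p = 0.00016), under the fold threshold. Part of its exons is shared with C1R, and what that adds to its value was not tested. Of 8 lectin pathway genes, MASP2 and COLEC11 were tested, with log2 fold changes of −0.03 and 0.57 (limma adjusted p = 0.89 and 0.0209). Neither was a DEG, COLEC11 for being under the fold threshold. CFB was the alternative pathway gene tested, of 3, since CFD and CFP, the genes of factor D and properdin, were under the filter with 13 and 11 fragments in the untreated and 11 and 11 in the treated group.

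Beyond C3, the central and terminal components C5 and C8G had log2 fold changes of −0.08 and 0.43 and were not DEGs, and 5 of the 8 genes of this role were under the filter. Among 14 soluble regulators, CLU and CFHR4 were tested, with log2 fold changes of 0.17 and −0.14 (limma adjusted p = 0.0313 and 0.472). CLU had a mean of 8.13 FPKM in untreated and 9.15 FPKM in treated libraries, and CFHR4 had 0.658 and 0.588 FPKM. Apart from C3AR1, the tested receptors C5AR1, ITGAX, ITGB2 and C1QBP had log2 fold changes of 0.12, −0.17, 0.06 and −0.17. C1QBP, which binds C1q and is mostly mitochondrial, went from 177 ± 2.73 to 157 ± 3.56 FPKM (S.D., n = 3 each; limma adjusted p = 0.00175), under the fold threshold.

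**Figure D3:**
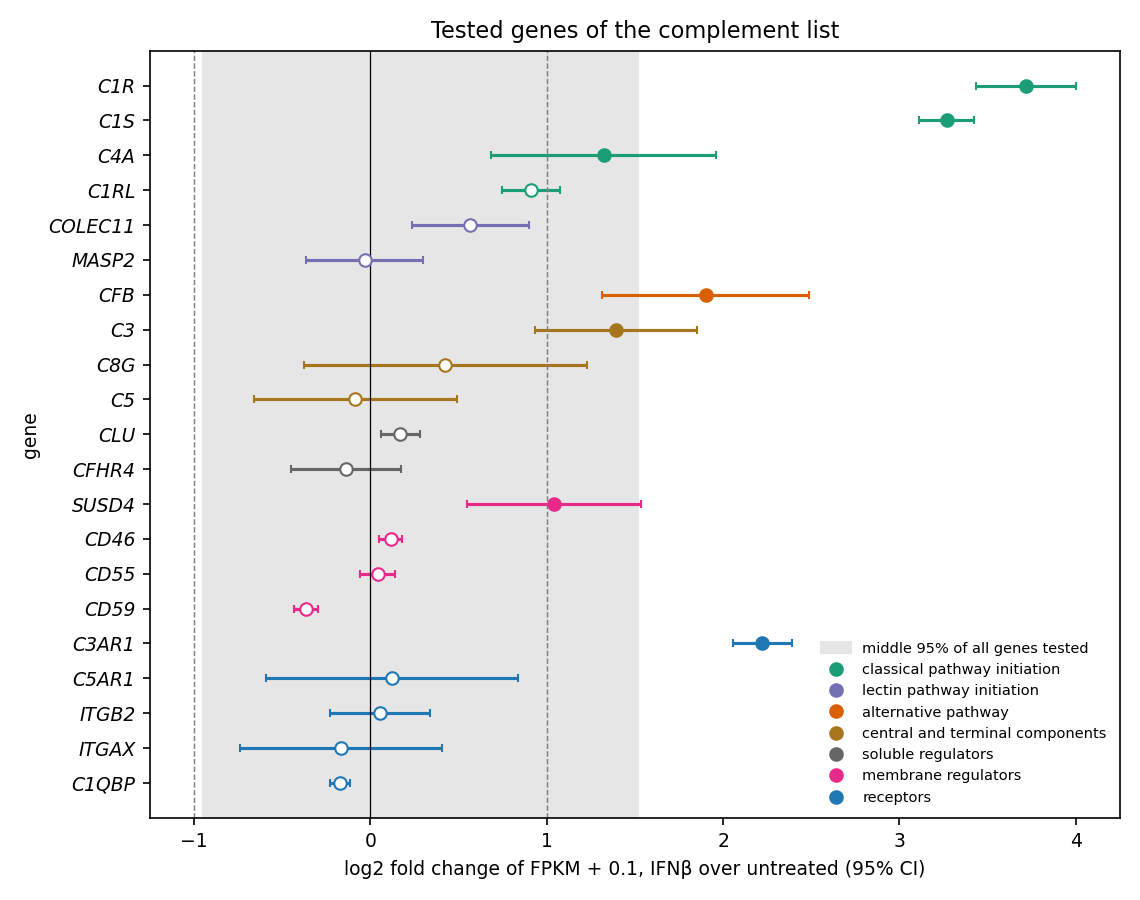
Log2 fold change of FPKM + 0.1 with IFNβ for the 21 tested genes of the complement list, ordered by role, with 95% confidence intervals from limma, filled points for DEGs, open points for the others, dashed lines at the fold threshold and grey for the middle 95% of all genes tested. C1R, C1S, C3AR1 and CFB lie to the right of the grey band, while C3, C4A and SUSD4 are DEGs inside it.

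Liver cells and leukocytes are known sources of complement RNA, and their markers were low in both groups. Of 6 hepatocyte markers, 5 were under 0.1 FPKM in every library, with a summed level of 0.132 to 0.169 FPKM in untreated and 0.0524 to 0.112 FPKM in treated libraries. Of 6 leukocyte markers, 5 were under 0.1 FPKM in every library, TYROBP was at 0 in all of them, and the summed level was 1.11 to 1.13 FPKM and 1.00 to 1.13 FPKM, most of it CSF1R. In the treated libraries the leukocyte sum was below the levels of C1R and C1S and above those of C3, CFB, SERPING1 and CFI, and its part in the complement values was not tested. Endothelial markers summed to 0.268 to 0.421 FPKM and 0.471 to 0.530 FPKM, with 2 of 4 under 0.1 FPKM throughout. Of 6 epithelial markers, KRT8 and KRT18 were over 1 FPKM and the summed level was 79.9 to 81.8 FPKM and 134 to 140 FPKM, while EPCAM, CDH1 and KRT5 were under 0.1 FPKM. The part of the keratin difference in the complement values was not tested.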

How the data were processed

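RNA was sequenced from 3 untreated and 3 IFNβ-treated HT1080 libraries. The authors enriched mRNA, sequenced paired ends and deposited FPKM for each Ensembl gene and library, without pooling replicates. The submitters' processing notes name fastp, HISAT2, StringTie and GRCh38, without roles, and the annotation and strand setting are not given in the sources used here.

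The genes and lists were chosen with earlier results of these data known. All 9 genes are described in every library. Other listed genes are given with values where they were DEGs, with a level or fold change where they were tested, and otherwise by counts. A gene of the list and a gene of the treatment check are not reported here, and the former is in the list counts but not in the plot of levels by role. Symbols were matched through a table of gene names, which held all 57 listed genes. Positions are those of GENCODE release 29 on GRCh38, which lacks 4436 of the IDs in the table.

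Whole fragments, within a relative tolerance of 1e-09, fitted 35301 of the 35303 genes above 0 (99.99%). Their totals came to 99.725% to 99.734% of each library's number. Since FPKM are not counts, groups were compared with lmFit and eBayes with an intensity trend (limma 3.58.1, R 4.3.3) on log2(FPKM + 0.1), with no covariate. The DESeq2 test of the study was not run, and the recovered fragments were compared by limma-voom as an alternative. The adjusted p-values were Benjamini-Hochberg values over the 20716 genes tested. With 3 libraries against 3, an exact two-sided permutation test cannot go below p = 0.1. Alternatives were other pseudocounts, filters, scalings and thresholds, eBayes without trend, a replicate block, each library left out, and limma-voom on fragments.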

Additional observations from a re-analysis of the deposited data

How the results depend on the processing

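The members counted as DEGs were 4 when any 1 library was left out, with the replicate number as a block, after median ratio scaling or quantile normalization, without an eBayes trend and with limma-voom on the genes of the main test. The DEGs of the wider list were 5 to 7, and those of all genes 809 to 867, when single libraries were left out. The deviations of same-numbered libraries from their group means correlated at 0.053, −0.018 and 0.12. These values cannot decide whether the libraries were paired, since differently numbered libraries were not compared in this way. The block gave 829 DEGs and the same counts of complement genes, 4 and 7. The adjusted p-value of CD46 was 0.0585 with the block and 0.0756 without an eBayes trend.

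A pseudocount of 1 left 304 DEGs (278 higher, 26 lower) of 20716 genes tested, 3 of them in the list and 2 of them, C1R and C1S, among the 9 genes. A filter at 1 FPKM left 425 (365 higher, 60 lower) of 11996 genes tested, with 3 in the list and 2 among the 9. CFB and C3 were under that filter and so were not tested. Without a fold threshold there were 6778 (3153 higher, 3625 lower) of 20716 genes tested. The list held 13 of them, of which 2 were lower, and 1 of the 9 genes was lower. Limma-voom over the 23754 genes with at least 10 fragments, added after the data were seen, gave 1360 DEGs (1155 higher). Of these, 11 were in the list and 6 among the 9, SERPING1 and CFI included. SERPING1 and CFI reached 10 fragments only through the treated libraries, so this filter favoured their calls. Of the DEGs, 82.5% were higher in the main test, 73.4% after quantile normalization and 91.4% with a pseudocount of 1. Depth limits CFB, SERPING1 and CFI, which had at most 10 fragments in any untreated library.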
